A study of Mus musculus with 9 samples.

Results

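The 52 genes described here drive or mark cell division in the mouse, and a gene was included for its known role in the cell cycle, with its row found by gene symbol. All 52 were among the 21498 symbols measured, and 51 of them passed the filter on low values and entered tests that ran over 15278 symbols. RNA of the colorectum was sequenced from 9 male ICR mice, an outbred stock, which were 5 weeks old at the start, with 3 mice per group. Control mice received no AOM/DSS and no antibody. The other mice received 1 intraperitoneal dose of 10 mg/kg azoxymethane (AOM), a colon carcinogen, and then 3 cycles of dextran sulfate sodium (DSS), an agent that damages the colonic epithelium, in their water, at 2% for 7 days in the first cycle and 1.5% for 5 days in each later cycle. During the DSS cycles they were given 1.5 mg/kg of either a control IgG Ab (AOM/DSS + IgG Ab) or a rabbit polyclonal antibody that neutralizes S100a9 (AOM/DSS + anti-S100a9 Ab) every 2 days, and mice were killed at the end of week 18. S100a9 is a pro-inflammatory protein of myeloid cells, and the design asks what AOM/DSS changes and what blocking S100a9 changes in turn. The labels call the Control samples normal mucosa and the samples of both AOM/DSS groups adenocarcinoma, so that treatment and kind of tissue cannot be told apart in the comparisons with Control. The paper's text, however, speaks of colon mucosa for the antibody-treated samples, and it reports fewer tumors in these mice. The tumor content of each sample is not given. It therefore cannot be told apart from the antibody in the comparison with AOM/DSS + IgG Ab either.

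A dividing cell passes through G1, in which D- and E-type cyclins with their kinases Cdk4, Cdk6 and Cdk2 release E2F transcription factors from the retinoblastoma protein, then copies its DNA in S phase and separates the copies in mitosis under cyclin B with Cdk1. Genes of G1 and S phase are switched on by E2F factors, whereas many genes of G2 and mitosis are held back in resting cells by the DREAM complex, which binds a promoter element called the cell cycle genes homology region (CHR), often near CCAAT boxes bound by NF-Y. In the colon, division is confined to the lower crypt, and cells stop dividing as they move up and mature.

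Words of both programs were found in some, but not all, promoters of these genes. RefSeq start sites on GRCm38.p6 gave 44 promoter windows for 42 of the 52 genes, each from 250 bases before to 50 bases after the start. The words TTTGAA and TTCGAA were searched for the CHR, CCAAT for the CCAAT box, and TTTCCCGC, TTTCGCGC, TTTGCCGC and TTTGGCGC for the E2F site, on both strands, and adjoining E2F words may share letters. A CHR word and a CCAAT word occurred together in 21 of the 44 windows (47.7%), against 7.52% of all 32851 windows, and an E2F word in 11 (25.0%), against 2.26%. The 10 windows of replication genes held an E2F word in 6 cases and the CHR with CCAAT pair in 3. Of the 11 windows of genes that were lower with the S100a9 antibody (given further on), 7 held the pair and 1 an E2F word. Among these 11, those of Birc5, Ccne1 and Cdk4 held none of the words and that of Ccnb1 only CCAAT words. Cdc25c, Foxm1, Kif20a and Tpx2, which were also lower, had no window. Of the 32 windows of the other genes tested 14 held the pair and 9 an E2F word. A word match is a description of the letters and not a measured site. The windows below are those of Plk1 (chr7:122159185-122159484, + strand), Cdc20 (chr4:118437294-118437593, - strand) and Ccnb2 (chr9:70421505-70421804, - strand), 3 genes of mitosis with both words, of Mcm6 (chr1:128359656-128359955, - strand), a replication gene with E2F words, and of Cdk4 (chr10:127063285-127063584, + strand), the gene with the widest differences and none of the words. They read 5′ to 3′ along the gene, and capitals mark the words found.
Plk1: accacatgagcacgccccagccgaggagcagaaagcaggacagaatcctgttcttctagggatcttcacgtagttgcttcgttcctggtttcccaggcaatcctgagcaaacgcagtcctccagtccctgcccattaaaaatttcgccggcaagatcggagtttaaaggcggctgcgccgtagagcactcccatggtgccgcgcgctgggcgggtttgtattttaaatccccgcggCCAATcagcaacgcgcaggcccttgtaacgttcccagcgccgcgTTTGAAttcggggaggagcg
Cdc20: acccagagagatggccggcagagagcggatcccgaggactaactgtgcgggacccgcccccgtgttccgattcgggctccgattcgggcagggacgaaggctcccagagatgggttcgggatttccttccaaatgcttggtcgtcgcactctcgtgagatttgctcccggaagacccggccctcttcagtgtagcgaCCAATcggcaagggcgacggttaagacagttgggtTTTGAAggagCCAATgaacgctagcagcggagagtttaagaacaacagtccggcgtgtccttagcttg
Ccnb2: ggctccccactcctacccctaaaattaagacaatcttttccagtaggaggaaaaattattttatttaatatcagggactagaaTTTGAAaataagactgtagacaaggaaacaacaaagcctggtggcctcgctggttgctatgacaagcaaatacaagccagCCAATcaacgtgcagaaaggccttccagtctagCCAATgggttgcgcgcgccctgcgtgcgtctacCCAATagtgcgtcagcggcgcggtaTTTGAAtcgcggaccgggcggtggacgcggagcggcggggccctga
Mcm6: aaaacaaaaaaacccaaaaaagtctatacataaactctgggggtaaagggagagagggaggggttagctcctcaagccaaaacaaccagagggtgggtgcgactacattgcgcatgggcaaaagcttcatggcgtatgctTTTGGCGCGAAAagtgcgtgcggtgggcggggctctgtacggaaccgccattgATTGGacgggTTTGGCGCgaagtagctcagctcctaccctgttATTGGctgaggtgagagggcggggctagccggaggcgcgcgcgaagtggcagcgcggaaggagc
Cdk4: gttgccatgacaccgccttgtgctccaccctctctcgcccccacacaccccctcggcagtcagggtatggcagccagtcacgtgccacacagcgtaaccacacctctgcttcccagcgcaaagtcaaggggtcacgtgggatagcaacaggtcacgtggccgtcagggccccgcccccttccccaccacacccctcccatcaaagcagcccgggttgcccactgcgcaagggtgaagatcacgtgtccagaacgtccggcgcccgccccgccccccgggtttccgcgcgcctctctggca

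Expression was analyzed as FPKM, fragments scaled to transcript length and to the size of the library, which allows levels of different genes to be compared per length. How many fragments lie behind a value is not known, and counting error is therefore not given. FPKM totals were 308377 to 408811 per sample. Cdt1, which loads the replicative helicase onto origins with Cdc6, was listed at 0 in all 9 samples. Since Gapdh and Ppia, used by nearly all cells, were also listed at no more than 0.755 and 0.974 FPKM, nothing can be read from the 0 of Cdt1. The 9 samples all held the epithelial markers Epcam, Cdh1, Krt8, Krt18, Krt19 and Vil1. Smooth muscle markers summed to between 518 and 4074 FPKM, so samples labelled as mucosa or tumor also contained smooth muscle RNA. In bulk tissue, a smaller number of cycling cells and less RNA per cycling cell cannot be told apart.

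**Figure D1:**
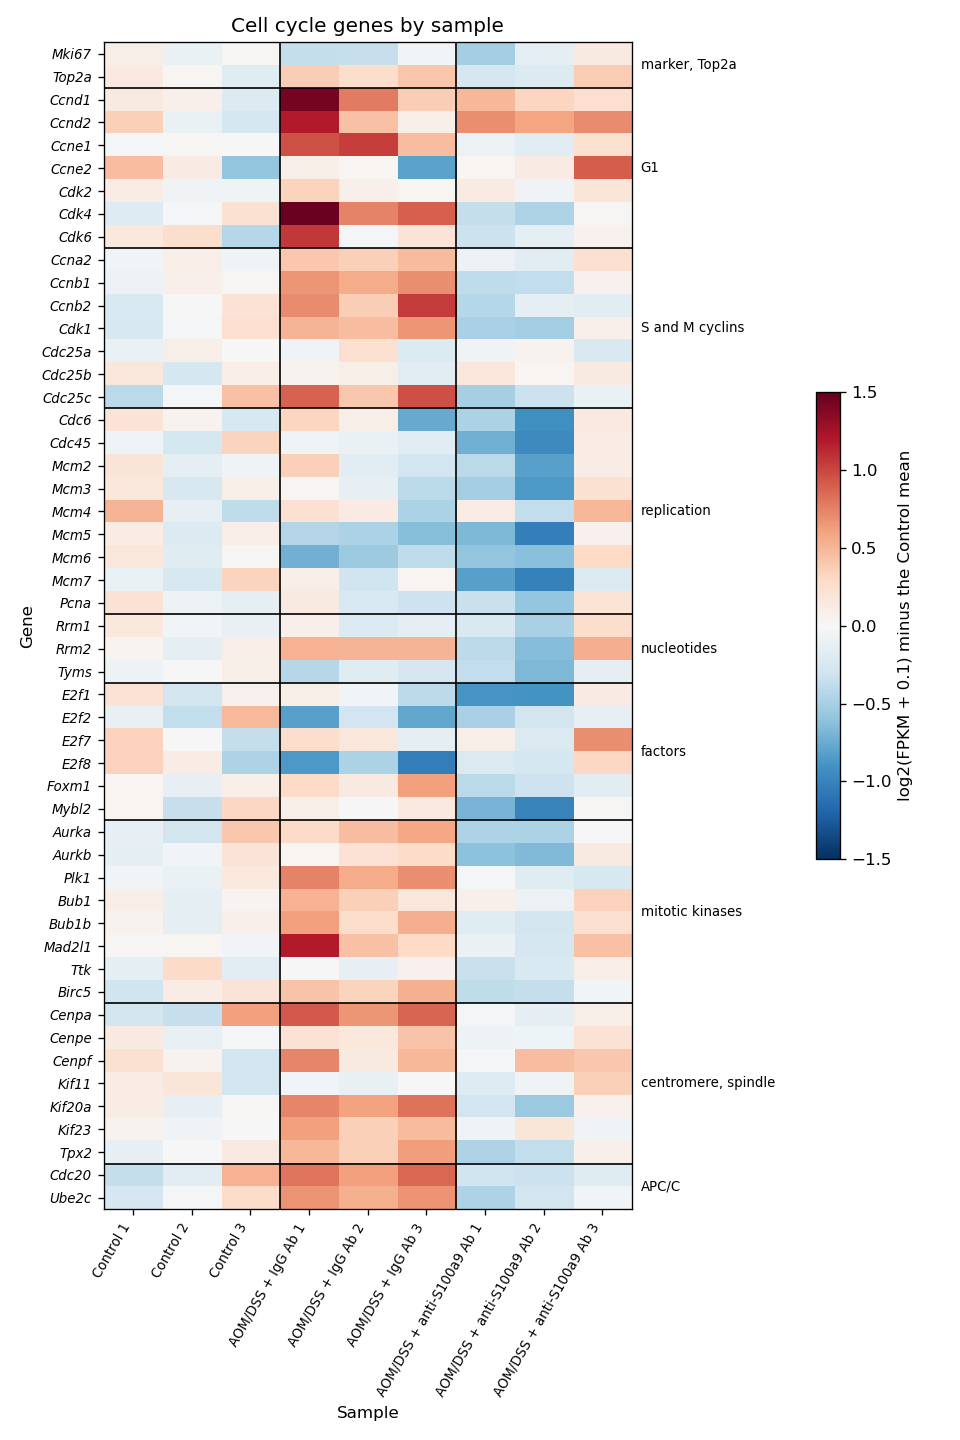
Each row is a cell cycle gene and each column a mouse, and the color gives log2(FPKM + 0.1) minus the mean of the Control mice, with red for higher and blue for lower. Rows are grouped by role, and most mitotic and cyclin rows are red in the AOM/DSS + IgG Ab columns while most replication rows are pale or blue there. AOM/DSS + anti-S100a9 Ab replicate 3 stands above the other mice of its group in 44 of the 51 rows.

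In AOM/DSS + IgG Ab samples, Cdk4, Ccne1, Plk1 and Kif20a rose against Control with an adjusted p under 0.05 from limma. These are 4 of 51 genes (7.84%), and 8.18% of all 15278 symbols rose by the same rule, so the share of cell cycle genes called was close to the background. The lowest AOM/DSS + IgG Ab value lay above the highest Control value for 22 of the 51 genes (43.1%, against 20.7% of all symbols) and the reverse held for 4 (7.84%, against 10.2%). Log2 fold changes of the 51 genes ran from -0.79 to 1.04 with a median of 0.35, against 0.09 over all symbols. None of the 51 genes was lower by adjusted p (3.01% of all symbols were), and at an unadjusted p under 0.05 from limma 16 were higher (19.4% of all symbols) and 2 lower (10.1%). The thresholds of the study's methods, an unadjusted p under 0.05 together with a change over 2-fold, were passed by Cdk4 alone, which was higher (8.43% of all symbols were higher, 5.19% lower and 13.6% either). The count of higher genes depended on single mice. The count was 0 of 51 without Control replicate 1 or replicate 2 (3.78% and 3.36% of all symbols), 5 without Control replicate 3 (7.99%), 2 without AOM/DSS + IgG Ab replicate 1 (5.87%), 2 without AOM/DSS + anti-S100a9 Ab replicate 1 or replicate 2 (5.7% and 5.76%), and 0 when only these 2 groups were fitted (3.29%). The median was 0.21 without AOM/DSS + IgG Ab replicate 3.

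With the S100a9 antibody, 15 of the 51 genes fell against IgG Ab with an adjusted p under 0.05 from limma (29.4%, against 14.4% of all symbols). None rose by that rule (6.72% of all symbols did), although 1 was higher (14.9% of all symbols) and 21 lower (24.2%) at an unadjusted p under 0.05. The 15 genes were Cdk4 and Ccne1 of G1, Ccnb1, Ccnb2, Cdk1 and Cdc25c of mitotic entry, Plk1, Aurka and Birc5 among mitotic kinases and their partners, Cenpa, Kif20a and Tpx2 of centromere and spindle, Cdc20 and Ube2c of the anaphase-promoting complex, and the transcription factor Foxm1. Log2 fold changes lay between -1.31 and 0.73 with a median of -0.41, against -0.06 over all symbols. All AOM/DSS + anti-S100a9 Ab values lay below all AOM/DSS + IgG Ab values for 18 genes (35.3%, against 28.5% of all symbols) and above them for 1 (against 18.5%). At the 2-fold thresholds 3 genes were called, Cdk4, Cdc25c and Cdc20, all lower (8.38% of all symbols were lower, 7.64% higher and 16.0% either). Of the 15, only Cdk4 and Plk1 kept the adjusted call with each of the 9 mice left out in turn, and each of the others lost it in 2 to 8 of these 9 fits. Without AOM/DSS + anti-S100a9 Ab replicate 1 or replicate 2 they were the 2 genes called (3.92%, with 4.12% and 2.81% of all symbols), without AOM/DSS + IgG Ab replicate 1 or replicate 3 there were 7 (13.7%, with 7.65% and 6.7% of all symbols) and without Control replicate 2 there were 8 (15.7%, with 10.5%), and after scaling samples to equal FPKM totals there were 6 (11.8%, with 7.22% of all symbols).

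Between AOM/DSS + anti-S100a9 Ab and Control, none of the 51 genes differed by adjusted p from limma (0.00655% of all symbols did in each direction). The smallest adjusted p was 0.301, shared by Mcm7 and Ccnd2, the 2 genes with an unadjusted p under 0.05, Ccnd2 being higher (8.87% of all symbols) and Mcm7 lower (7.1%). At the 2-fold thresholds 0 genes were called, against 2.28% of all symbols that were higher, 0.864% lower and 3.15% either. The groups did not overlap for 2 genes that were higher (17.3% of all symbols) and 2 that were lower (13.7%). The median log2 fold change was -0.17, against 0.04 over all symbols, and after scaling samples to equal FPKM totals it turned to 0.025, against 0.23. The 3 comparisons share samples, each group entering 2 of them, so they are not independent of each other.

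**Figure D2:**
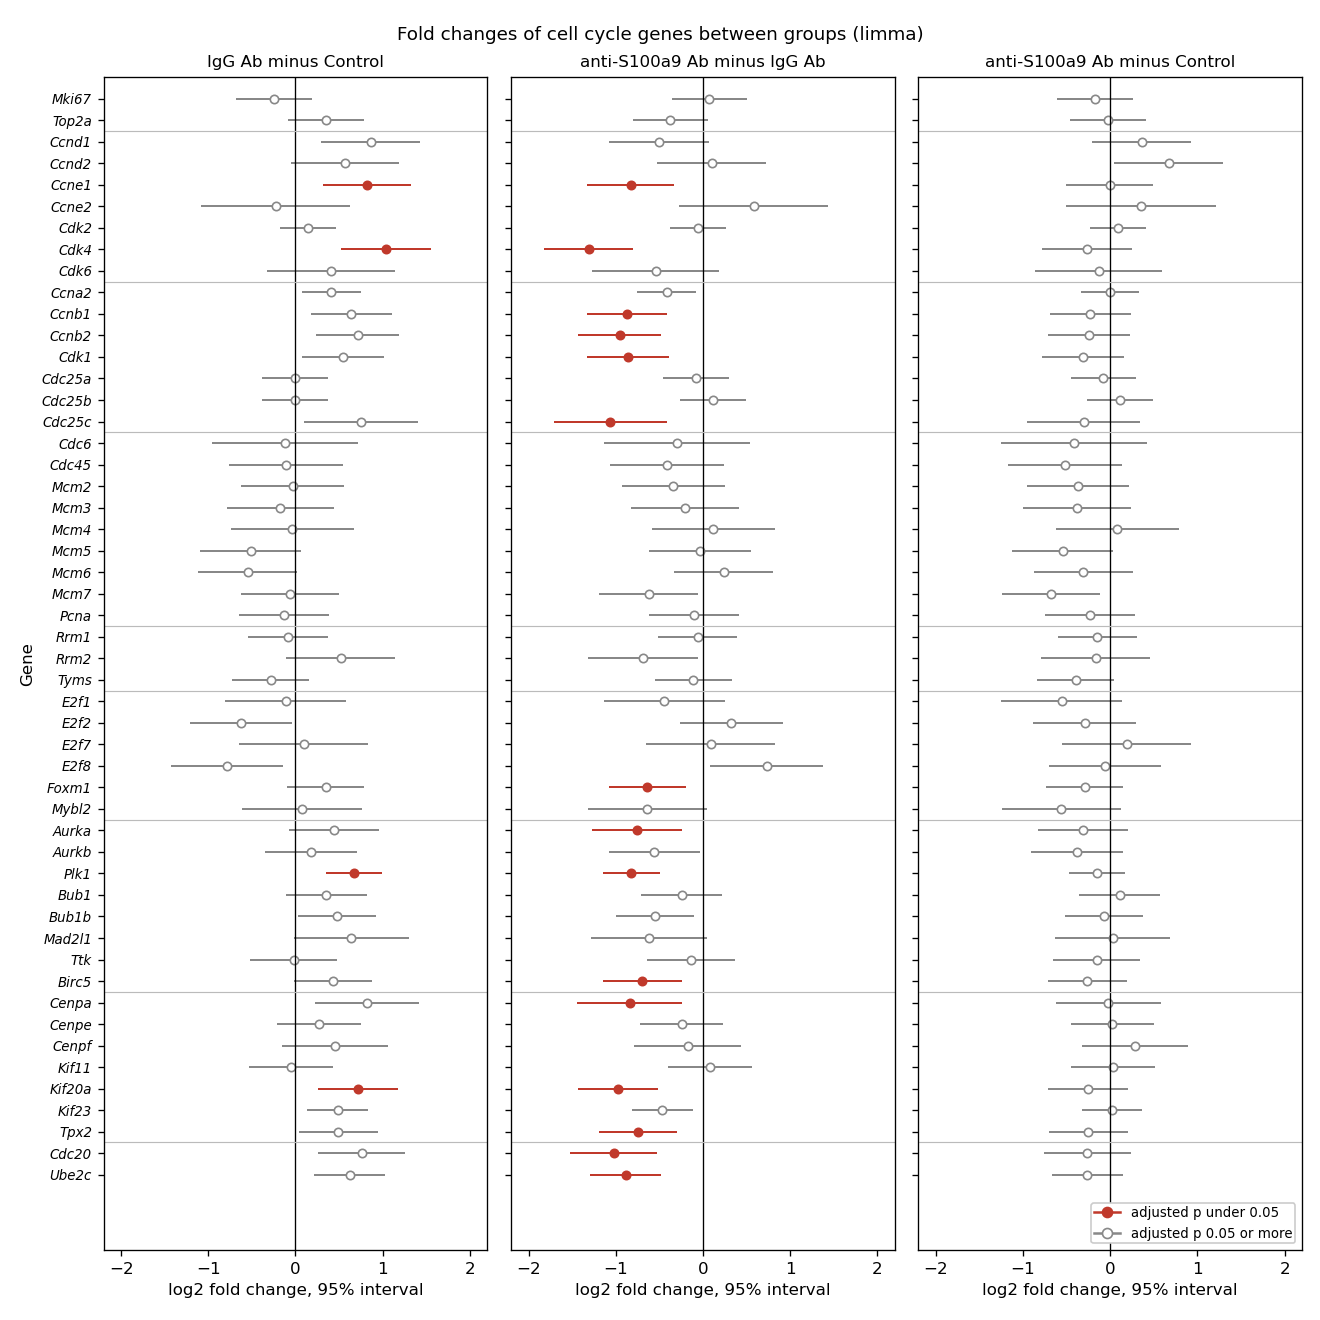
Points give the log2 fold change of each cell cycle gene, on the log2(FPKM + 0.1) scale, in the 3 comparisons, and lines give the 95% interval from limma. Filled red points passed an adjusted p of 0.05, which was the case for 4 genes in the left panel, 15 in the middle panel and 0 in the right panel, and grey lines divide the role groups.

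Mki67 encodes Ki-67, the protein most used in tissue sections to mark cycling cells. Its expression was 11.9, 10.4 and 11.4 FPKM in the Control mice, 8.72, 8.81 and 10.9 in AOM/DSS + IgG Ab and 7.82, 10.1 and 12.3 in AOM/DSS + anti-S100a9 Ab, in the order of the replicates. The IgG Ab group thus sat at the low side of Control, overlapping it through replicate 3, and the antibody group spanned both. The log2 fold change was -0.25 for IgG Ab against Control (95% interval -0.67 to 0.17, adjusted p = 0.404), 0.07 for the S100a9 antibody against IgG Ab (-0.35 to 0.50, adjusted p = 0.787) and -0.17 for the antibody against Control (-0.59 to 0.25, adjusted p = 0.649). Top2a, the topoisomerase that untangles replicated DNA before mitosis, was 13.6, 12.6 and 10.9 FPKM in Control, 15.9, 14.8 and 16.5 in IgG Ab and 10.4, 10.7 and 16.1 in antibody-treated mice. Every IgG Ab value exceeded every Control value, and antibody replicate 3 lay within the IgG Ab range. Its log2 fold changes of 0.35 (adjusted p = 0.244) and -0.37 (adjusted p = 0.171) did not pass.

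Among 7 G1 cyclins and kinases, 2 rose with AOM/DSS + IgG Ab (8.18% of all symbols), and 2 fell with the S100a9 antibody (14.4% of all symbols). Cdk4 (chromosome 10, 127063534 to 127067920, GRCm38), the kinase partner of D-type cyclins, was 35.0, 39.2 and 46.9 FPKM in Control, 112, 67.0 and 74.7 in IgG Ab and 31.1, 29.1 and 40.6 in antibody-treated mice. No IgG Ab value overlapped either other group, and IgG Ab replicate 1 was the highest of all. The group means were 40.4 ± 6.03, 84.6 ± 24.2 and 33.6 ± 6.10 FPKM (SD, n = 3 each). With IgG Ab the log2 fold change was 1.04 (2.06-fold, 95% interval 0.54 to 1.54, adjusted p = 0.0213), and with the antibody it was -1.31 (to 0.404 of the IgG Ab level, -1.81 to -0.81, adjusted p = 0.00957). Ccne1 encodes cyclin E1, the partner of Cdk2 at the start of S phase, and is described because it passed both tests. It was 2.32, 2.40 and 2.35 FPKM in Control, 4.67, 4.95 and 3.29 in IgG Ab and 2.2, 2.09 and 2.79 in antibody-treated mice. The groups on either side of IgG Ab did not overlap it, and the Control values lay within 0.1 FPKM of each other. Its log2 fold changes were 0.82 (adjusted p = 0.0435) and -0.83 (adjusted p = 0.0305), and these calls were lost in 8 and 6 of the 9 fits without a mouse.

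Cdk2 itself was at 12.7, 11.3 and 11.2 FPKM in Control, 14.8, 12.3 and 11.9 in IgG Ab and 12.8, 11.3 and 13.3 in antibody-treated mice, with all groups overlapping. Its log2 fold changes were 0.14 (95% interval -0.17 to 0.46) and -0.06 (-0.37 to 0.26). The D-type cyclins, which link growth signals to Cdk4 and Cdk6, were highest in IgG Ab replicate 1. Ccnd1 was 23.1, 22.2 and 18.3 FPKM in Control and 57.5, 36.3 and 27.2 in IgG Ab, without overlap (log2 fold change 0.86, adjusted p = 0.0561). Ccnd2 was 36.4, 26.5 and 23.6 FPKM in Control, 64.7, 38.4 and 30.1 in IgG Ab and 46.2, 43.0 and 46.5 in antibody-treated mice. The antibody group was the tightest of the 3 and lay above Control throughout, with a log2 fold change of 0.67 over Control (95% interval 0.06 to 1.28, unadjusted p = 0.0356, adjusted p = 0.301 from limma).

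The 7 genes of S and M phase cyclins, Cdk1 and the Cdc25 phosphatases had a median log2 fold change of 0.55 with IgG Ab. None passed the adjusted threshold there (8.18% of all symbols were higher), and 5 were higher at an unadjusted p under 0.05 from limma (19.4% of all symbols). With the S100a9 antibody 4 of the 7 fell (14.4% of all symbols). Cdk1, the kinase that starts mitosis, was 6.78, 7.91 and 9.57 FPKM in Control, 11.5, 11.1 and 12.7 in IgG Ab and 5.69, 5.55 and 8.45 in antibody-treated mice. Ccnb1 and Ccnb2 encode its B-type cyclin partners, and Ccnb2 was 7.65, 9.02 and 10.4 FPKM in Control, 14.8, 11.6 and 18.7 in IgG Ab and 6.62, 8.18 and 8.0 with the antibody. In both genes the IgG Ab values stood above all 6 other values. With the antibody the log2 fold change was -0.86 for Cdk1 (adjusted p = 0.0232), -0.87 for Ccnb1 (adjusted p = 0.0216) and -0.95 for Ccnb2 (adjusted p = 0.0182).

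Cdc25 phosphatases remove the inhibitory phosphates from Cdk kinases, and the 2 named by the rule behaved differently. Cdc25c, which acts at mitotic entry, was 1.03, 1.36 and 1.93 FPKM in Control, 2.66, 1.89 and 2.84 in IgG Ab and 0.959, 1.10 and 1.30 with the antibody. IgG Ab replicate 2 overlapped Control, and no antibody value reached the IgG Ab range. The log2 fold changes were 0.75 (adjusted p = 0.117) and -1.06 (95% interval -1.70 to -0.42, adjusted p = 0.0324). Cdc25a, which acts earlier in the cycle, was 7.66, 8.75 and 8.21 FPKM in Control, 7.92, 9.73 and 7.12 in IgG Ab and 7.91, 8.50 and 6.96 with the antibody, with all groups overlapping. Its log2 fold change with the antibody was -0.08 (95% interval -0.44 to 0.29).

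Of the replication licensing and fork genes none passed the adjusted test in any comparison. The Mcm2 to Mcm7 proteins form the helicase that is loaded at origins by Cdc6 and Cdt1, and Cdc45 and Pcna act at the fork. All 9 genes tested had a log2 fold change below 0 in IgG Ab against Control, with a median of -0.12, although with samples scaled to equal FPKM totals 6 of the 9 did, with a median of -0.036. Mcm6 was 21.8, 17.0 and 19.6 FPKM in Control, 11.7, 13.3 and 14.9 in IgG Ab and 12.8, 12.5 and 23.8 in antibody-treated mice. The IgG Ab values all lay below Control, and antibody replicate 3 was the highest of the 9 mice. The log2 fold change with IgG Ab was -0.55 (95% interval -1.11 to 0.01, adjusted p = 0.177) and that of the antibody against IgG Ab was 0.24 (-0.32 to 0.80). Mcm5 likewise did not overlap, with 23.5, 18.9 and 23.4 FPKM in Control and 16.1, 15.7 and 14.0 in IgG Ab (log2 fold change -0.52, adjusted p = 0.208).

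Mcm2, the member of this group with the smallest difference, was 19.2, 15.1 and 16.2 FPKM in Control, 21.5, 15.0 and 13.7 in IgG Ab and 12.7, 9.45 and 18.0 with the antibody. The groups overlapped, with log2 fold changes of -0.03 (95% interval -0.61 to 0.55) and -0.34 (-0.92 to 0.24). Mcm7 was 9.98, 9.02 and 13.5 FPKM in Control, 11.4, 8.63 and 10.9 in IgG Ab and 6.02, 5.24 and 9.18 with the antibody, where replicates 1 and 2 were the lowest of all mice. Its log2 fold change was -0.62 against IgG Ab (adjusted p = 0.0967) and -0.68 against Control (unadjusted p = 0.0213, adjusted p = 0.301 from limma). The summed FPKM of the 10 replication genes was 109.6 to 139.7 in Control, 96.0 to 120.2 in IgG Ab and 72.4 to 140.7 with the antibody, so that the antibody group spanned more than both others.

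Ribonucleotide reductase (Rrm1 and Rrm2) and thymidylate synthase (Tyms) supply nucleotides for DNA synthesis, and none of these 3 genes passed the adjusted test. Rrm2, the subunit whose level follows S phase, was 9.88, 8.67 and 10.3 FPKM in Control, 13.9, 13.7 and 13.8 in IgG Ab and 7.31, 6.07 and 14.0 with the antibody. The IgG Ab mice were almost identical and above Control, and antibody replicate 3 was as high as they were. The log2 fold change was 0.52 with IgG Ab (adjusted p = 0.240) and -0.68 with the antibody (adjusted p = 0.0993). Without antibody replicate 3 the latter was -1.04 and passed (adjusted p = 0.0237). Rrm1, the large subunit, was 18.1, 15.8 and 15.0 FPKM in Control, 17.1, 14.1 and 14.8 in IgG Ab and 13.8, 11.6 and 19.5 with the antibody, with log2 fold changes of -0.09 (95% interval -0.53 to 0.36) and -0.06 (-0.51 to 0.38).

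Of 6 cell cycle transcription factors, 0 rose with IgG Ab (8.18% of all symbols) and 1, Foxm1, fell with the antibody (14.4% of all symbols). Foxm1, an activator of G2 and M genes, was 3.46, 3.10 and 3.59 FPKM in Control, 4.14, 3.73 and 5.25 in IgG Ab and 2.54, 2.7 and 3.01 with the antibody, and the 3 groups did not overlap. Its log2 fold change with the antibody was -0.64 (adjusted p = 0.0439), a call lost in 7 of the 9 fits without a mouse. E2f8, a repressor of E2F targets, ran the other way at 5.00, 4.22 and 2.81 FPKM in Control, 2.11, 2.78 and 1.85 in IgG Ab and 3.33, 3.22 and 4.87 with the antibody. The IgG Ab values were the lowest of the 9, with log2 fold changes of -0.79 (unadjusted p = 0.0200, adjusted p = 0.101 from limma) and 0.73 (unadjusted p = 0.0281, adjusted p = 0.0895). Mybl2, an activator of cell cycle genes, was 2.16, 1.65 and 2.66 FPKM in Control, 2.27, 2.10 and 2.35 in IgG Ab and 1.27, 1.01 and 2.14 with the antibody. Its log2 fold changes were 0.07 (95% interval -0.60 to 0.75) and -0.64 (-1.31 to 0.04).

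Of 8 mitotic kinases and spindle checkpoint genes, Plk1 rose with IgG Ab (8.18% of all symbols), and Plk1, Aurka and Birc5 fell with the antibody (14.4% of all symbols). Plk1 (chromosome 7, 122159439 to 122169873), a kinase needed from mitotic entry to the division of the cell, was 7.30, 7.04 and 8.32 FPKM in Control, 12.7, 11.2 and 12.3 in IgG Ab and 7.39, 6.61 and 6.36 with the antibody. The IgG Ab mice stood clear of both other groups, which overlapped each other. The means were 7.55 ± 0.677, 12.1 ± 0.809 and 6.79 ± 0.539 FPKM (SD, n = 3 each). The difference on the log2 scale was 0.67 for IgG Ab against Control (1.59-fold, 95% interval 0.36 to 0.98, adjusted p = 0.0193) and -0.82 for the antibody against IgG Ab (-1.13 to -0.51, adjusted p = 0.00949). Aurka, a kinase of the spindle poles, fell by 0.76 on the log2 scale (adjusted p = 0.0439), a call lost in 8 of 9 fits without a mouse. Birc5, which encodes survivin of the complex that corrects chromosome attachment, fell by 0.69 (adjusted p = 0.0371). Ttk, a kinase of the spindle checkpoint, showed overlapping values of 2.08, 2.84 and 2.06 FPKM in Control, 2.29, 2.11 and 2.42 in IgG Ab and 1.81, 1.95 and 2.47 with the antibody (log2 fold changes -0.02 and -0.14, 95% intervals -0.51 to 0.47 and -0.63 to 0.36).

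Of 7 centromere and spindle genes, Kif20a rose with IgG Ab (8.18% of all symbols), and Kif20a, Cenpa and Tpx2 fell with the antibody (14.4% of all symbols). Kif20a, a motor of the central spindle described because it passed both tests, was 4.28, 3.63 and 4.0 FPKM in Control, 6.63, 6.06 and 7.06 in IgG Ab and 3.26, 2.65 and 4.16 with the antibody, the IgG Ab mice being the highest throughout. Its log2 fold changes were 0.72 (adjusted p = 0.0488, lost in 8 of 9 fits without a mouse) and -0.97 (adjusted p = 0.0157). Cenpa, the histone variant that marks centromeres, was 3.11, 2.97 and 5.88 FPKM in Control, 7.27, 6.07 and 7.03 in IgG Ab and 3.74, 3.44 and 4.04 with the antibody. Control replicate 3 stood apart from its group, close to the IgG Ab values. The log2 fold changes were 0.82 (adjusted p = 0.0748) and -0.84 (adjusted p = 0.0494). Leaving out a mouse gained the first call in 1 of 9 fits, that without Control replicate 3, and lost the second in 8. Tpx2, which nucleates spindle microtubules, fell by 0.74 with the antibody (adjusted p = 0.0302). Kif11, the motor that keeps spindle poles apart, overlapped in all groups at 4.50, 4.75 and 3.39 FPKM in Control, 4.04, 3.85 and 4.20 in IgG Ab and 3.64, 4.0 and 5.38 with the antibody (log2 fold changes -0.05 and 0.08, 95% intervals -0.52 to 0.42 and -0.39 to 0.56).

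Cdc20 activates the anaphase-promoting complex, the ubiquitin ligase that ends mitosis, and Ube2c is its ubiquitin-conjugating partner. Cdc20 was 10.7, 12.2 and 19.7 FPKM in Control, 23.9, 21.0 and 25.1 in IgG Ab and 11.2, 10.9 and 12.1 with the antibody. Ube2c was 7.33, 8.52 and 10.6 FPKM in Control, 13.9, 12.7 and 13.9 in IgG Ab and 6.32, 7.16 and 8.44 with the antibody. In both genes the IgG Ab mice lay above the 6 others, and Control replicate 3 was the highest outside them. With IgG Ab the log2 fold changes of 0.76 (adjusted p = 0.0536) and 0.63 (adjusted p = 0.0523) fell just short of the threshold, and with the antibody those of -1.02 (adjusted p = 0.0172) and -0.89 (adjusted p = 0.0147) passed it.

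**Figure D3:**
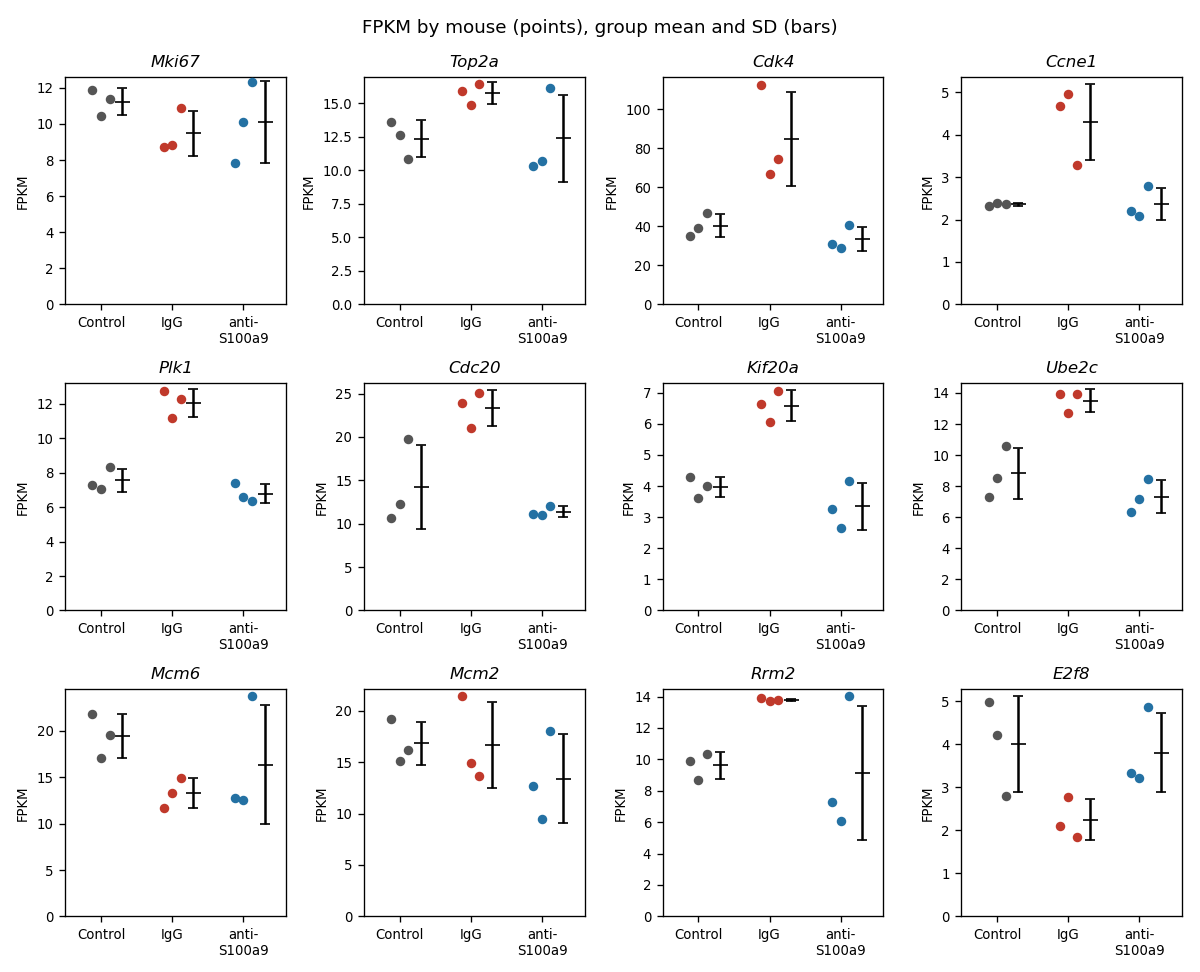
FPKM of 12 cell cycle genes in each of the 9 mice, with the group mean and SD beside the points and each vertical axis starting at 0. The 3 AOM/DSS + IgG Ab points stand above both other groups for Cdk4, Ccne1, Plk1, Cdc20, Kif20a and Ube2c, whereas those of Mki67 and Mcm2 overlap Control, and 1 antibody-treated mouse stands high for Top2a, Mcm6 and Rrm2.

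The mouse that stands high is AOM/DSS + anti-S100a9 Ab replicate 3. It had the highest value of its group for 44 of the 51 genes (86.3%), whereas it was the highest for 39.6% of all symbols tested. The mean log2 level over the 51 genes was 2.31, 2.24 and 2.73 in the antibody-treated mice, against 2.61, 2.51 and 2.61 in Control and 2.93, 2.76 and 2.75 in IgG Ab. Replicates 1 and 2 of the antibody-treated mice were thus below all Control mice and replicate 3 was above them, short of the IgG Ab range. The median log2 fold change of the antibody against IgG Ab was -0.58 without that mouse. Within its group it also had the lowest sum of smooth muscle markers, at 2246 FPKM against 4074 and 3528, and the highest sum of mature colonocyte markers, at 2608 FPKM against 1349 and 1659. The part of these differences in its cell cycle values was not tested.

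The other genes of the cycle were taken by list. Of 7 CDK inhibitors, which oppose the kinases above, 3 rose with IgG Ab (8.18% of all symbols). With the antibody 3 fell (14.4% of all symbols) and 1 rose (6.72%). Cdkn2a, the locus of p16Ink4a and p19Arf, was listed at 0.137, 0 and 0.298 FPKM in Control, 8.93, 7.02 and 11.2 in IgG Ab and 0.241, 0.575 and 0.321 with the antibody. The IgG Ab mice were far above all others, with a log2 fold change of 5.41 (adjusted p = 0.000855) on the log2(FPKM + 0.1) scale, which understates low values, and of -4.29 with the antibody (adjusted p = 0.00312), while that of the antibody against Control was 1.12 (adjusted p = 0.315). Cdkn1a, which encodes p21, was 38.9, 44.5 and 47.4 FPKM in Control, 75.4, 76.9 and 107 in IgG Ab and 40.0, 44.7 and 50.6 with the antibody. IgG Ab stood above both groups (log2 fold changes 0.97 and -0.92, adjusted p = 0.0106 and 0.0125 from limma), and the fall was lost in 2 of the 9 fits without a mouse. Cdkn1c, which encodes p57, was 2.30, 4.55 and 5.32 FPKM in Control, 83.4, 9.18 and 15.6 in IgG Ab and 3.13, 4.35 and 3.77 with the antibody (log2 fold changes 2.55 and -2.59, adjusted p = 0.0499 and 0.0340). IgG Ab replicate 1 supplied most of the group sum, and the calls were lost in 7 and 5 of the 9 fits without a mouse.

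Cdkn1b, which encodes p27, had the opposite pattern, with 20.8, 20.3 and 13.3 FPKM in Control, 9.21, 13.2 and 10.6 in IgG Ab and 23.3, 24.7 and 17.3 with the antibody. It rose with the antibody (log2 fold change 0.98, adjusted p = 0.0223 from limma), after a log2 fold change of -0.70 with IgG Ab (adjusted p = 0.0798). The rise was lost in 4 of the 9 fits without a mouse. Cdkn2b, Cdkn2c and Cdkn2d, inhibitors of Cdk4 and Cdk6, had log2 fold changes of -0.72, -0.32 and -0.37 with IgG Ab and did not pass (adjusted p = 0.0593, 0.295 and 0.284). Myc, a growth regulator upstream of the cycle, was 11.8, 8.59 and 11.5 FPKM in Control, 44.3, 24.4 and 22.6 in IgG Ab and 13.3, 11.4 and 12.2 with the antibody. It rose by 1.45 and fell by 1.24 on the log2 scale (adjusted p = 0.0101 and 0.0163 from limma), without overlap of IgG Ab with the others. The call of its fall was lost in 2 of the 9 fits without a mouse.

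**Figure D4:**
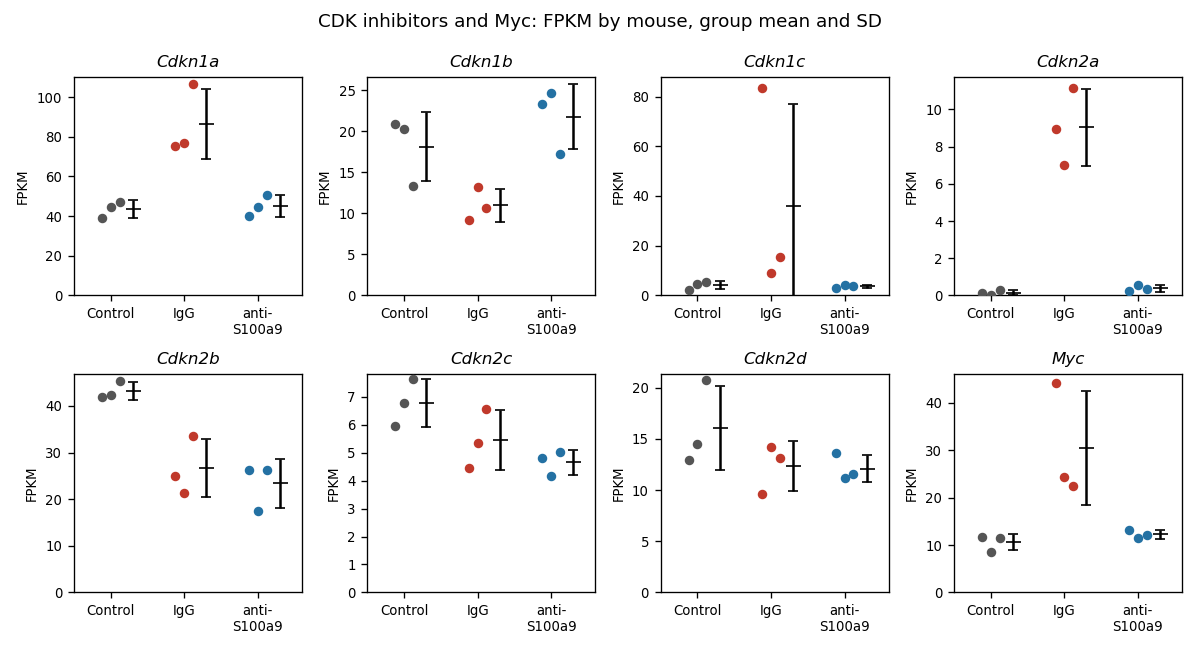
FPKM of the 7 CDK inhibitors and Myc in each mouse, with the group mean and SD and each vertical axis starting at 0. Cdkn1a, Cdkn2a and Myc are higher in all 3 AOM/DSS + IgG Ab mice than in the 6 others, Cdkn1b is lower there, and the mean of Cdkn1c in that group is set by 1 mouse at 83.4 FPKM.

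Among 8 growth and antiproliferative regulators, Myc rose (8.18% of all symbols) and the antiproliferative Btg1 fell (3.01%) with IgG Ab. With the antibody Myc fell (14.4%) while Btg1 and Ccng2, the cyclin G2 gene of resting cells, rose (6.72%). The rises of Btg1 and Ccng2 had log2 fold changes of 0.70 and 1.08 (adjusted p = 0.0213 and 0.0285 from limma). Leaving out a mouse lost the fall of Btg1 in 1 of 9 fits, its rise in 3 and the rise of Ccng2 in 5. Of 11 pocket protein and other E2F and DREAM genes, 0 passed with IgG Ab (8.18% of all symbols rose and 3.01% fell) and 2 rose with the antibody (6.72%). Rb1, the retinoblastoma gene, was 16.5, 14.5 and 8.64 FPKM in Control, 7.74, 10.7 and 6.10 in IgG Ab and 18.4, 17.9 and 19.2 with the antibody (log2 fold changes -0.67 and 1.21, adjusted p = 0.135 and 0.0201). The antibody-treated mice were the highest and the closest together. Its relative Rbl2 rose by 0.62 (adjusted p = 0.0394). The call was lost in 8 of the 9 fits without a mouse for Rbl2 and in 5 for Rb1.

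The 25 tested genes for origins, the GINS complex and DNA polymerases counted 1 rise with IgG Ab, that of Dbf4, the activator of the origin-firing kinase Cdc7 (log2 fold change 0.76, adjusted p = 0.0206). With the antibody 2 fell, Rfc3, a subunit of the clamp loader, by 1.00 (adjusted p = 0.0286) and Gins4 by 0.60 (adjusted p = 0.0498). Pold1, the catalytic subunit of polymerase delta, had the largest difference with IgG Ab in this list, at -0.86, and did not pass (adjusted p = 0.0980). Of 22 kinetochore, condensin and cytokinesis genes 0 passed with IgG Ab, where the largest value was that of Kif2c, a microtubule-depolymerizing kinesin (0.66, adjusted p = 0.0839), and with the antibody Kif2c fell by 0.93 (adjusted p = 0.0224) and the condensin gene Ncaph by 0.68 (adjusted p = 0.0382). Of 11 subunits and regulators of the anaphase-promoting complex, Anapc4 rose with IgG Ab (0.62, adjusted p = 0.0390), and Anapc4, Anapc7 and Cdc16 fell with the antibody, by 0.64, 0.62 and 0.65 (adjusted p = 0.0267, 0.0471 and 0.0209). Leaving out a mouse lost the rise of Anapc4 in 8 of 9 fits and that of Dbf4 in 2. The falls of Anapc4, Anapc7 and Cdc16 were lost in 5, 7 and 3, those of Rfc3 and Gins4 in 3 and 7 and those of Kif2c and Ncaph in 4 and 6. These shares can be read against the 8.18% and 14.4% of all symbols given above.

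Markers of some cell types in the tissue moved with the same groups. No goblet cell or macrophage marker passed the adjusted test in any comparison, and of the T cell markers only Cd4 did, rising with the antibody. By adjusted p from limma, 8.18% of all symbols rose and 3.01% fell with IgG Ab, and 6.72% rose and 14.4% fell with the antibody. Of 6 mature colonocyte markers, 4 fell with IgG Ab and 3 rose with the antibody, and their summed FPKM was 3033 to 3388 in Control, 199.6 to 1163 in IgG Ab and 1349 to 2608 with the antibody. Of 4 intestinal stem cell markers tested, 3 rose with IgG Ab and all 4 fell with the antibody, with summed FPKM of 24.9 to 30.3, 64.3 to 278 and 22.7 to 28.3, and Olfm4 at or near 0 in all samples. Fibroblast markers rose in 4 of 6 cases with IgG Ab, and 3, all collagen genes, fell with the antibody (summed FPKM 412 to 497, 616 to 2093 and 559 to 734). The log2 fold change had the opposite sign for 1 of the 6 with IgG Ab and for 2 with the antibody. Neutrophil markers rose in 3 of 5 and fell in 2 (90.3 to 119, 65.2 to 343 and 90.2 to 167), with 1 of the 5 of opposite sign in each comparison. Of 6 general epithelial markers, only Krt18 passed, rising with IgG Ab and falling with the antibody. All 6 smooth muscle markers had log2 fold changes above 0 with the antibody against IgG Ab, with a median of 1.42, and Myh11, the smooth muscle myosin, rose (adjusted p = 0.0331), with summed FPKM of 518 to 3251 in IgG Ab and 2246 to 4074 with the antibody. IgG Ab replicate 1 held the lowest colonocyte, goblet and smooth muscle sums of the 9 mice and the highest stem cell sum, as well as the highest Cdk4, Ccnd1, Ccnd2 and Cdkn1c values. B cell and germinal centre B cell markers, whose cells divide in lymphoid follicles, did not pass in any comparison, with B cell sums of 25.8 to 240 in Control, 7.51 to 111 in IgG Ab and 50.1 to 208 with the antibody. The part of these shifts in the cell cycle results was not tested. Without IgG Ab replicate 1, 2 of 51 cell cycle genes rose with IgG Ab (3.92%, with 5.87% of all symbols) and 7 fell with the antibody (13.7%, with 7.65%).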

How the data were processed

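Colorectal RNA of 9 mice was sequenced, with 3 biological replicates in each of 3 groups taken from the labels. The authors deposited 1 file of values per mouse, with 21544 rows that carry gene symbols. No source used here names the unit, and the decimal values deposited by the authors have the form of FPKM. The submitters' processing notes name TopHat, Cufflinks, HTSeq, DESeq and GRCm38, without versions. The 46 rows that repeat a symbol were summed. FPKM carries no depth, recovery of whole reads was not attempted, and DESeq, which needs counts, was not run.

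From these values log2(FPKM + 0.1) was computed for the 15278 symbols that reached 0.1 FPKM in 3 or more samples, without further scaling, and a fold change on this scale understates low genes. Differences between groups were tested in limma 3.58.1 under R 4.3.3 (all 9 samples, empirical Bayes with an intensity trend, Benjamini-Hochberg adjustment over all symbols tested), and a gene was called at an adjusted p under 0.05. The 51 tested genes were chosen with earlier results of these data known, as were the lists of other cell cycle genes and markers, so no test was made over a list. The p-values compare a difference of group means with the spread between mice. That spread was pooled over the 3 groups and moderated over all symbols tested.

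Values were given in every mouse for Mki67, for the gene with the largest and the smallest difference between AOM/DSS + IgG Ab and Control in each of 9 role groups, and for any gene with an adjusted p under 0.05 that went against its group in that comparison or that differed between AOM/DSS + anti-S100a9 Ab and Control, of which there were 0. All CDK inhibitors were named, and in each further list the gene with the largest such difference. Ccne1, Kif20a, Cdk1, Ccnb2, Ccnd1, Ccnd2, Mcm5, Mcm7, Foxm1 and the other genes outside this rule were named after their values were seen. No pair of files held the same values, and correlations of log2 values were 0.917 to 0.970 within groups and 0.839 to 0.972 between groups. The script was tested on simulated data, in which 200 of 15278 genes were changed in AOM/DSS + IgG Ab. At an adjusted p under 0.05, 17% of these were recovered at a log2 fold change of 1 and 91.5% at 3. A gene that did not pass may therefore still differ between groups. Gene positions are from GENCODE M21 (GRCm38), which held all 52 genes, and promoters from RefSeq (GRCm38.p6). Alternatives were the pseudocount, the filter, the scaling, the groups in the fit, the intensity trend, the replicate number as a block and leaving out each mouse. Figures were drawn with matplotlib 3.10.9 in Python 3.11.15 with pandas 2.3.3 and numpy 2.4.6.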

Additional observations from a re-analysis of the deposited data

How the results depend on the processing

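Depth is unknown and 3 mice per group set the precision. The count of cell cycle genes higher in AOM/DSS + IgG Ab than in Control (4) was 2 with no filter on low values or with median-of-ratios scaling, 0 when only the 2 groups compared were fitted, and 0 to 5 with a mouse left out. The count of lower genes (0, with 3.01% of all symbols) was 0 to 1 with a mouse left out (0.526% to 5.18%). That past the thresholds of the methods (1, with 13.6%) was 0 with median-of-ratios scaling and 0 to 4 with a mouse left out. The median (0.35) was 0.24 with median-of-ratios scaling and 0.21 to 0.35 with a mouse left out. Against IgG Ab, the count lower with the S100a9 antibody (15, with 14.4% of all symbols) was 6 with total scaling (7.22%). With a mouse left out it was 2 to 16 (2.81% to 17.6%). The count past the thresholds of the methods (3, with 16.0%) was 1 with pseudocount 1, total or median-of-ratios scaling. With a mouse left out that count was 2 to 7. Shares of all symbols past these thresholds are given for the main fit only. Against Control, the median of -0.17 became 0.025 with total scaling. That median was -0.33 to -0.12 with a mouse left out. No cell cycle gene passed the adjusted test in that comparison under any alternative run, where at most 0.0264% of all symbols rose. The median against IgG Ab (-0.41) was -0.58 to -0.28. Of 765 single-gene values with a mouse left out, 565 kept their direction and their side of the threshold, 169 lost the call, 11 gained it and 20 changed sign. Only a value called in the main fit could lose the call, so the 169 cannot be read as a share of the 765. The cause of these changes was not tested. The median of all symbols moved by over 0.1 with total scaling in the antibody comparisons, from -0.06 to 0.05 and from 0.04 to 0.23, and with median-of-ratios scaling in IgG Ab against Control, from 0.09 to -0.0092.

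Values near 0 changed sign. With total scaling the log2 fold change with IgG Ab became 0.083 for Cdc25a, 0.054 for Mcm2, 0.061 for Ttk and 0.034 for Kif11, and with median-of-ratios scaling -0.028 for Mybl2. With the antibody against IgG Ab, total and median-of-ratios scaling gave 0.057 and 0.022 for Cdk2, 0.037 and 0.0033 for Cdc25a and 0.053 and 0.018 for Rrm1, and against Control total scaling gave 0.025 for Mki67. With a mouse left out, the ranges that crossed 0 were, with IgG Ab, -0.12 to 0.098 for Cdc25a, -0.23 to 0.098 for Mcm2, -0.097 to 0.23 for Mybl2, -0.097 to 0.13 for Ttk and -0.19 to 0.043 for Kif11, and with the antibody against IgG Ab, -0.081 to 0.25 for Mki67, -0.11 to 0.038 for Cdk2, -0.17 to 0.047 for Cdc25a, -0.063 to 0.40 for Mcm6, -0.27 to 0.11 for Rrm1 and -0.076 to 0.20 for Kif11.

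With the replicate number as a block, 7 cell cycle genes were higher in AOM/DSS + IgG Ab than in Control (7.91% of all symbols), with Ccne1 lost and Ccnb2, Ccnd1, Cdc20 and Ube2c gained, and 16 were lower with the antibody than with IgG Ab (14.6%). The deviations of equally numbered mice from their group means correlated at -0.187 to 0.249, over 0.1 in 5 of 9 pairs. Those of differently numbered mice of different groups correlated at -0.267 to 0.190. These values do not settle whether the numbers pair the mice. The labels call them biological replicates and name no pairing, and the main fit took the mice as unpaired.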
